A study of Mustela putorius furo with 10 samples.

Results

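RAB genes and TBC1D genes were examined as 2 gene families of membrane traffic. Members were the genes whose RefSeq ferret symbol, found through the accession of their array sequence, begins with RAB and a digit or with TBC1D, and that had a probe well above background in the ferret sample on at least 4 of 10 arrays. Of the 98 such symbols in the RefSeq gene table, 77 were on the array by accession and 65 passed, out of 26303 genes tested. These were 43 RAB members, namely 36 RAB GTPases and 7 partner proteins that carry a RAB name, and 22 TBC1D members. Of the 12 that did not pass, RAB39B and RAB3B came closest, with a probe well above background on 3 arrays. Just inside the limit were RAB6B on 4 arrays and RAB3A on 5. The other 21 symbols, RAB10, RAB35, RAB4A and RAB32 among them, were matched to no array sequence by accession and are not analysed here, except TBC1D16, whose sequence is named through the tables of the study and which is given beside the members.

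The samples were peripheral blood mononuclear cells (PBMC), the lymphocytes and monocytes of blood, separated on a Ficoll gradient. They came from male ferrets (Mustela putorius furo) from Cunipic, 3 months old, with no genetic modification named, which were kept for 1 week either at 22 °C (control, 6 animals) or at 4 °C (cold, 4 animals). The methods mention individual housing at the end of the phrase on the cold group, and whether it covers the controls is not clear. Cold and single housing cannot be told apart if controls were not housed alone. The RNA of each ferret, labelled with Cy3, was hybridised to its own array together with a common Cy5-labelled reference pool of PBMC and other tissues.

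RAB proteins are small GTPases that act as molecular switches on membranes. Bound to GTP, each marks a compartment, such as the early endosome, the lysosome or a secretory granule, and recruits effectors that move, tether and fuse vesicles. Exchange factors load GTP, and most TBC-domain proteins, the TBC1D family included, are GTPase-activating proteins (GAPs) that make a RAB hydrolyse its GTP and so switch it off. In blood cells these switches serve phagocytosis, the release of granules and the traffic of antigen and of receptors.

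Values are log2 ratios of Cy3 to Cy5 after loess normalisation, averaged over the probes of a gene, so that 0 means the typical ratio of that array at that brightness, not equal signal in both channels. A change is the mean of the cold less the mean of the control arrays, with its standard error (SE) from limma. No gene passed an adjusted p of 0.05 (limma with Benjamini-Hochberg adjustment over all genes), and the lowest adjusted p of a member was 0.0659. A gene is called here at an unadjusted limma p under 0.01, the threshold of the study's methods, which 2272 genes met (8.64%), 1371 of them higher (5.21%) and 901 lower in cold (3.43%). The balance of all genes called rested on the scaling, with 865 of 1505 lower from the processed signals of the scanner software, 588 of 1093 in the deposited table and 948 of 1163 under median centring. At an unadjusted p under 0.05 there were 6501 genes (24.7%). The exact permutation test for single genes enumerates the 210 splits of 10 arrays, two-sided, and its smallest possible p is 0.00476.

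Of the 43 RAB members, 7 were called and all 7 were higher in cold (16.3%, beside 8.64% of all genes). They were RAB7B, RAB44, RAB20, RAB9A, RAB29, RAB3D and the partner protein RAB11FIP5. Of the 36 RAB GTPases alone, 6 were called (16.7%), and 27 means were higher and 9 lower. Of the 22 TBC1D members, 2 were called, TBC1D2 and TBC1D8, also higher (9.09%, close to the background). No member was called lower here. Under other settings of the ratio single members were called lower, RAB3IL1 with the median over probes, within slide position 1, with the replicate block and without control replicate 5, TBC1D24 without control replicate 4, TBC1D24, TBC1D20 and RAB6B without cold replicate 2, and RAB11FIP2 without cold replicate 3. The cold and control values did not overlap for 5 members (RAB7B, RAB20, RAB9A, TBC1D8 and TBC1D1), where this held for 5.22% of all genes. In all 5 the cold values were the higher ones (3.07% of all genes), and in none the lower (2.15%). The methods' t-test called 8 of these 9 members (6.56% of all genes), Cy3 alone called 6 of them, all but RAB44, RAB29 and RAB11FIP5 (9.84%), and the deposited values called 4 (4.16%). The processed signals of the scanner software called 2 (5.72%), both RABs and 4.65% of the RAB members, and median centring none (4.42%). In Cy3 alone RAB20 and RAB3D passed the adjusted threshold (2.82% of all genes). No test of the difference between the families was made. The median change was 0.09 over the RAB members, with 31 means higher and 12 lower, 0.00 over the TBC1D members, with 11 higher and 11 lower, and -0.01 over all genes. The sign of these medians depended on the scaling. With each array centred on its median in place of loess they were -0.44 for RAB, -0.55 for TBC1D and -0.43 for all genes. In the authors' deposited value table they were -0.059, -0.11 and 0.01. The TBC1D median was also below 0 from the processed signals (-0.05) and in Cy3 alone (-0.02), where the RAB median was 0.06 and 0.12.

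**Figure D1:**
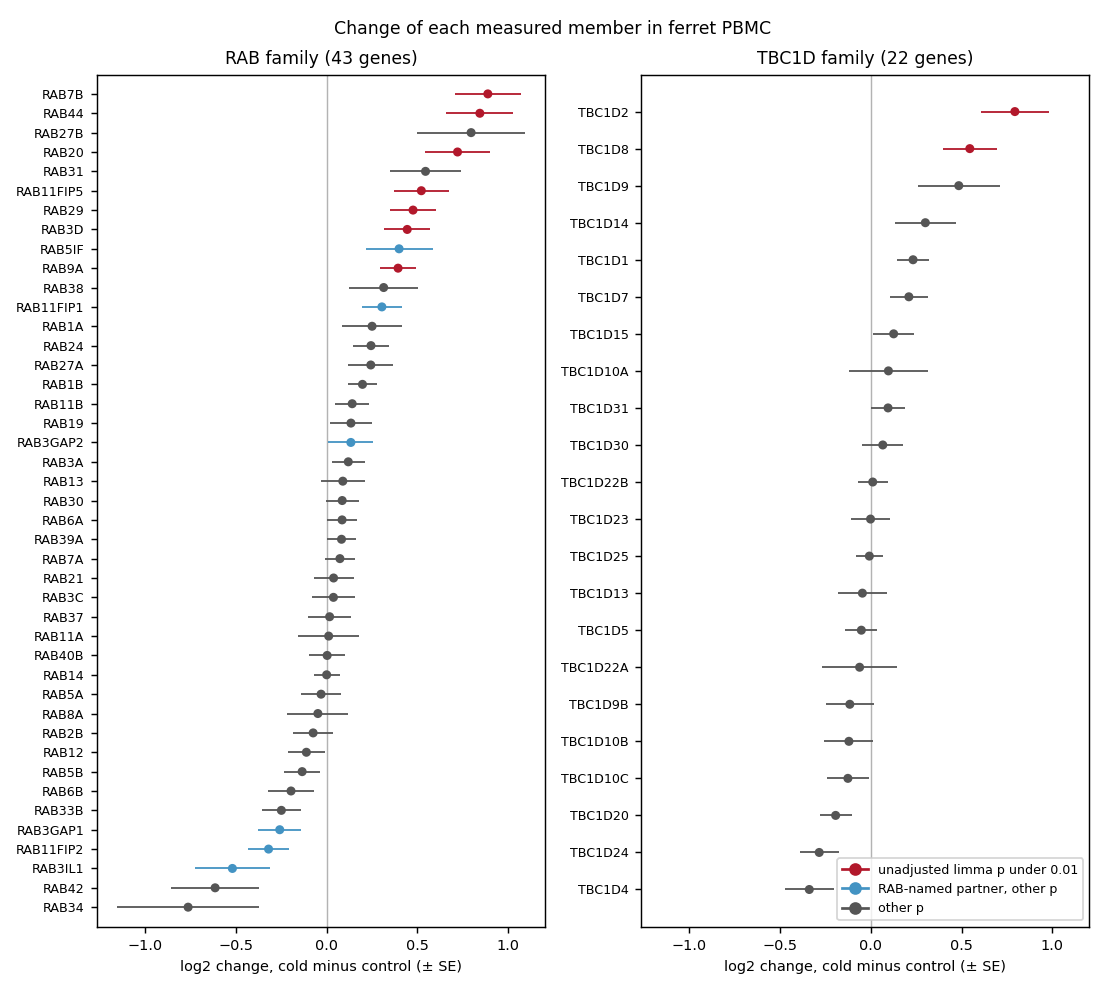
The horizontal axis is the log2 change, cold minus control, of each RAB member (left) and TBC1D member (right), with bars of 1 SE, and red marks the 9 called members. All red points lie to the right of 0, from 0.39 for RAB9A to 0.89 for RAB7B, while the medians of the families lie at 0.09 and 0.00 here and below 0 under median centring and in the deposited table.

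Of the 8 measured RABs of the late endosome and lysosome, 7 had a higher mean in cold (48.0% of all genes) and 3 were called (8.64% of all genes), with a median change of 0.28 and a range from -0.61 to 0.89. Under median centring, where the median of all genes was -0.43, RAB9A (-0.24), RAB24 (-0.77) and RAB7A (-0.88) were below 0 in place of above it. RAB7B, a late endosomal RAB of monocytes and macrophages, lay between -0.07 and 0.42 on the control arrays with a median of 0.03. On cold replicates 1 to 4 it was 1.03, 0.67, 1.60 and 0.76. Every cold array was above every control array, the change was 0.89 (SE 0.18), and the exact permutation p was 0.00476 (adjusted limma p 0.0659). All 4 of its kept probes were higher in cold. The other 4 on the array, of a target sequence that was above background on no array, changed by 0.00 to 0.08, so that the change without the filter was 0.47. Under median centring it was 0.43 and not called. RAB7A, the near-ubiquitous regulator of late endosome fusion, had a change of 0.07 (SE 0.08), and its cold values of 0.11, 0.09, 0.03 and 0.28 overlapped control values of -0.12 to 0.21. Taken on each array, RAB7B less RAB7A, set to a mean of 0 in control, ranged from -0.32 to 0.26 in control and from 0.40 to 1.49 in cold without overlap.

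RAB9A returns mannose 6-phosphate receptors from late endosomes to the Golgi. Its control values were almost equal, from -0.10 to -0.03 (SD 0.02), and its cold values were 0.15, 0.37, 0.65 and 0.18. The groups did not overlap, and the change was 0.39 (SE 0.10, exact permutation p 0.00476, adjusted limma p 0.0765). All 8 probes, on 2 target sequences, were higher. Under median centring the change was -0.24, beside a median of -0.43 for all genes. RAB29, which acts at the Golgi and at lysosomes with the kinase LRRK2, had control values from 0.15 to 0.65 (median 0.39) and cold values of 1.08, 0.54, 1.00 and 0.91. Cold replicate 2 fell within the control range, and the change was 0.48 (SE 0.13, exact permutation p 0.0190, adjusted limma p 0.0863), with 12 of 12 probes higher. The remaining members of the group were not called. RAB24, linked to autophagy, had a change of 0.24 (SE 0.10). RAB42, a little-studied RAB, had a change of -0.61 (SE 0.24) in the ratio but of 0.05 in Cy3 alone.

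All 7 measured RABs of secretory granules had a higher mean in cold in the loess ratio (48.0% of all genes), with changes from 0.02 to 0.84 (median 0.24), and 2 were called (8.64% of all genes). Under median centring (median of all genes -0.43) RAB27A (-0.65) and RAB37 (-1.05) were lower, as in the deposited table, and in Cy3 alone RAB3C (-0.11) and RAB37 (-0.03) were. RAB44, a large RAB with calcium-binding motifs that is found in granulocyte and mast cell lineages, ranged from 0.16 to 1.12 in control (median 0.31) and was 1.50, 1.20, 1.41 and 1.05 in cold. Its Cy5 signal was above background on 3 of the 6 control arrays, and in Cy3 alone it was not called. Only cold replicate 4 lay below the highest control array, and the change was 0.84 (SE 0.18, exact permutation p 0.0143, adjusted limma p 0.0705). RAB3D, a granule RAB of exocrine and mast cells, ranged from -0.01 to 0.41 in control (median 0.12) and was 0.61, 0.35, 0.97 and 0.47 in cold. Cold replicate 2 alone lay within the control range. Its change was 0.44 (SE 0.13, exact permutation p 0.00952, adjusted limma p 0.0934). RAB27B, which serves platelet and mast cell granules, had cold values of 1.00, -0.08, 1.82 and 0.82 against control values of -0.12 to 0.63. Cold replicate 2 sat near the bottom of the control range and the other cold arrays above it, and the change of 0.80 (SE 0.30) was not called (adjusted limma p 0.142). RAB27A, needed for the release of lytic granules by cytotoxic lymphocytes, was 1.04, 0.77, 1.24 and 0.72 in cold and 0.45 to 0.88 in control, a change of 0.24 (SE 0.12, exact permutation p 0.105) that was not called, although 12 of 12 probes were higher. RAB37 (0.02, SE 0.12) and RAB3C (0.04, SE 0.12) had the smallest changes of the group.

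**Figure D2:**
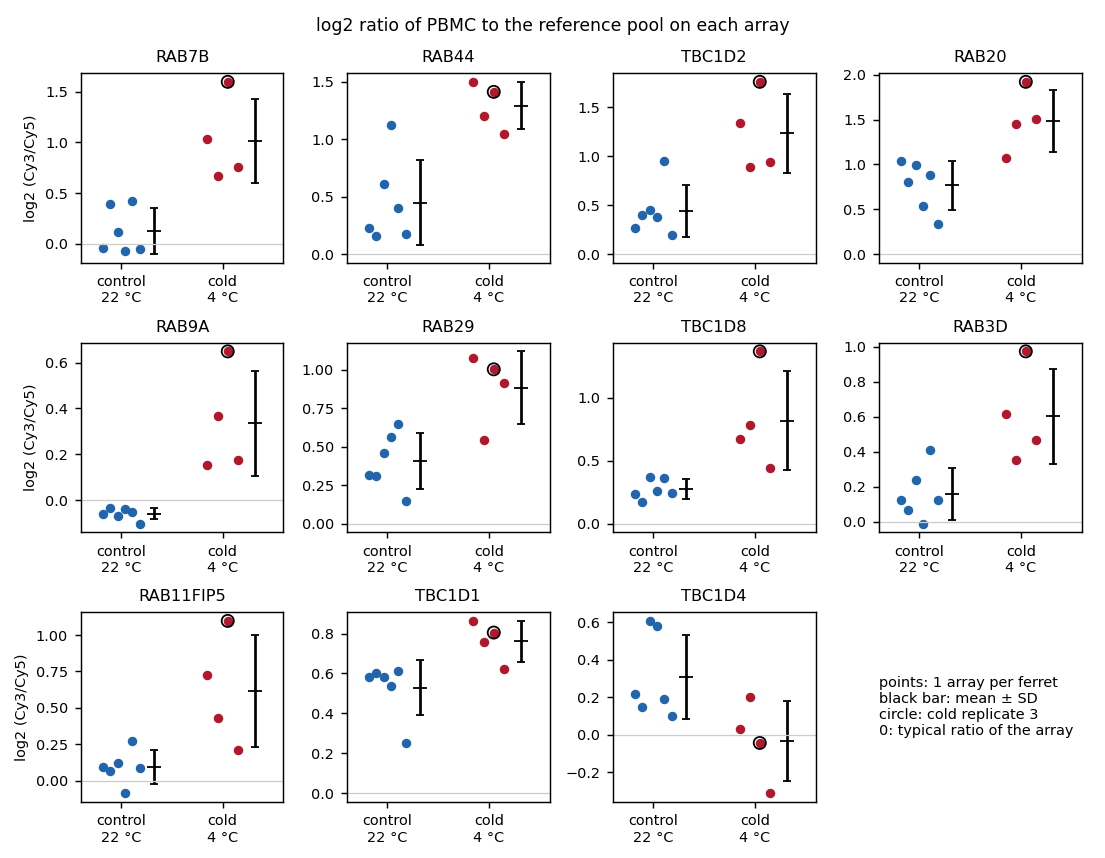
Each panel gives the log2 ratio of Cy3 to Cy5 (vertical axis) of 1 gene on the 6 control and 4 cold arrays, with the mean and SD beside the points, for the 9 called members and the AKT substrates TBC1D1 and TBC1D4. Cold replicate 3, circled, is the highest array for 7 of the 9 called members, and TBC1D4 is the gene whose cold values lie low.

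Among the 5 measured RABs of the early endosome and of uptake, only RAB20 was called (8.64% of all genes were). RAB20 takes part in the maturation of phagosomes in macrophages. It ranged from 0.34 to 1.04 in control (median 0.85) and was 1.07, 1.45, 1.92 and 1.51 in cold, all above the highest control array. The change was 0.72 (SE 0.18, exact permutation p 0.00476, adjusted limma p 0.0752), and in Cy3 alone, quantile normalised, it was 0.88 (adjusted limma p 0.0407). RAB20 was also the 1 member whose Cy5 signal, that of the reference pool, differed between the groups at an unadjusted p under 0.01, by 0.22 in the same direction, where 1.79% of all genes did so. Under median centring its change was -0.14, beside a median of -0.43 for all genes. RAB31 had a change of 0.55 (SE 0.19) with cold replicate 4 inside the control range. The early endosome organisers RAB5A (-0.03, SE 0.11), RAB5B (-0.13, SE 0.10) and RAB21 (0.04, SE 0.11) were not called.

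None of the 6 RABs of recycling and exocytosis or of the 9 of the endoplasmic reticulum and Golgi was called, beside 8.64% of all genes. These groups are too small to read this as a difference from all genes. Without cold replicate 2, RAB1B was called higher and RAB6B lower. Changes of the 6 recycling and exocytosis RABs lay between -0.11 and 0.14, RAB11A at 0.01 (SE 0.17), RAB8A at -0.05 (SE 0.17) and RAB14 at 0.00 (SE 0.07) among them. For RAB11A, the cold values of -0.35, -0.36, 0.21 and -0.74 spanned the whole control range of -0.49 to 0.04. Of 9 RABs of the endoplasmic reticulum and Golgi, 5 had a higher and 4 a lower mean. RAB1A and RAB1B, which carry cargo from the endoplasmic reticulum to the Golgi, changed by 0.25 (SE 0.17) and 0.20 (SE 0.08), and RAB33B by -0.25 (SE 0.11). RAB34, with a ratio far below the typical one (-2.45 ± 0.75, SD, n = 6, in control), is the member whose direction rested most on the channel. Its ratio changed by -0.76 (SE 0.39), while Cy3 alone was higher in cold by 0.45 (unadjusted limma p 0.00422).

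The 7 partner proteins had changes of both signs. RAB11FIP5, an effector that ties RAB11 to recycling endosomes, ranged from -0.09 to 0.28 in control (median 0.09) and was 0.72, 0.43, 1.10 and 0.21 in cold. Cold replicate 4 alone lay within the control range. The change was 0.52 (SE 0.15, exact permutation p 0.00952, adjusted limma p 0.0967), with 12 of 12 probes higher. Under median centring it was -0.24, beside a median of -0.43 for all genes. RAB11FIP1, of the same effector family, changed by 0.30 (SE 0.11), and RAB11FIP2 by -0.32 (SE 0.11) with 4 of 4 probes lower. Set side by side on each array, RAB11FIP5 less RAB11FIP2, with a control mean of 0, was -0.24 to 0.31 in control and 0.51 to 1.21 in cold. Of 13 pairs of related members set side by side in this way, 3 did not overlap between the groups, namely RAB7B with RAB7A, this pair, and TBC1D1 with TBC1D4, and 10 overlapped. The share over all pairs of genes was not computed, and for single genes it was 5.22%. RAB7B and TBC1D1 do not overlap by themselves. RAB27B less RAB27A, 1 of the 10 overlapping pairs, was -0.36 to 0.35 in control and -0.25 to 1.19 in cold. The pairs were chosen after the values of the members were known. RAB3IL1, an exchange factor, had a change of -0.52 (SE 0.21) with 12 of 12 probes lower. RAB3GAP1, the catalytic subunit of a RAB3 GAP, changed by -0.26 (SE 0.12), and its partner subunit RAB3GAP2 by 0.13 (SE 0.12).

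Among the TBC1D proteins, TBC1D2 had the largest change. TBC1D2, also called Armus, is a GAP for RAB7 on late endosomes and autophagosomes. It ranged from 0.20 to 0.95 in control (median 0.39) and was 1.34, 0.89, 1.76 and 0.95 in cold. The groups overlapped through control replicate 5, the change was 0.79 (SE 0.19, exact permutation p 0.0143, adjusted limma p 0.0736), and all 16 probes, on 4 target sequences, were higher. TBC1D5, which also acts on RAB7 with the retromer, had a change of -0.05 (SE 0.09) with 6 of 16 probes higher. TBC1D14 and TBC1D15, further members linked to autophagy and late endosomes, changed by 0.30 (SE 0.17) and 0.13 (SE 0.11).

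TBC1D8, a TBC protein whose target is less defined, ranged from 0.17 to 0.37 in control and was 0.68, 0.78, 1.37 and 0.45 in cold. The groups did not overlap, and the change was 0.55 (SE 0.15, exact permutation p 0.00476, adjusted limma p 0.0898). Its probes disagreed. Of 6 kept, 4 were higher by 0.71 to 1.02 and 2, well above background on 8 and 9 arrays in place of 10, were at -0.05 and 0.00. Of the 73 kept probes of all called members these 2 were the ones not higher in cold.

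TBC1D1 and TBC1D4 (AS160) are the related GAPs that AKT phosphorylates and that hold back the glucose transporter vesicles of muscle and fat. Their changes had opposite signs. TBC1D1 ranged from 0.25 to 0.61 in control and was 0.86, 0.76, 0.80 and 0.62 in cold, all above control, although by as little as 0.01 for cold replicate 4. Its change was 0.23 (SE 0.09, exact permutation p 0.00476, adjusted limma p 0.153), with 11 of 12 probes higher. It was not called, and in Cy3 alone the change was 0.05. Under median centring, where the median of all genes was -0.43, both genes were lower in cold, TBC1D1 at -0.56 and TBC1D4 at -1.19. TBC1D4 ranged from 0.10 to 0.61 in control (median 0.20) and was 0.03, 0.20, -0.04 and -0.31 in cold. Cold replicate 2 lay within the control range and the other cold arrays below it. The change was -0.34 (SE 0.13, exact permutation p 0.0524, adjusted limma p 0.161), with 8 of 8 probes lower. TBC1D4 was called lower in Cy3 alone (-0.48) and in the deposited table (-0.76). On each array, TBC1D1 less TBC1D4, with a control mean of 0, was -0.26 to 0.24 in control and 0.33 to 0.71 in cold. TBC1D16, a related GAP, is no member, since its array sequence had no RefSeq match and is named only through the tables of the study. It was -0.16, -0.42, -0.51 and -0.39 in cold against -0.17 to 0.02 in control. Its change was -0.32 (SE 0.08, exact permutation p 0.00952, adjusted limma p 0.0848), which met the threshold for a call, so that this TBC1D gene outside the members was called lower.

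**Figure D3:**
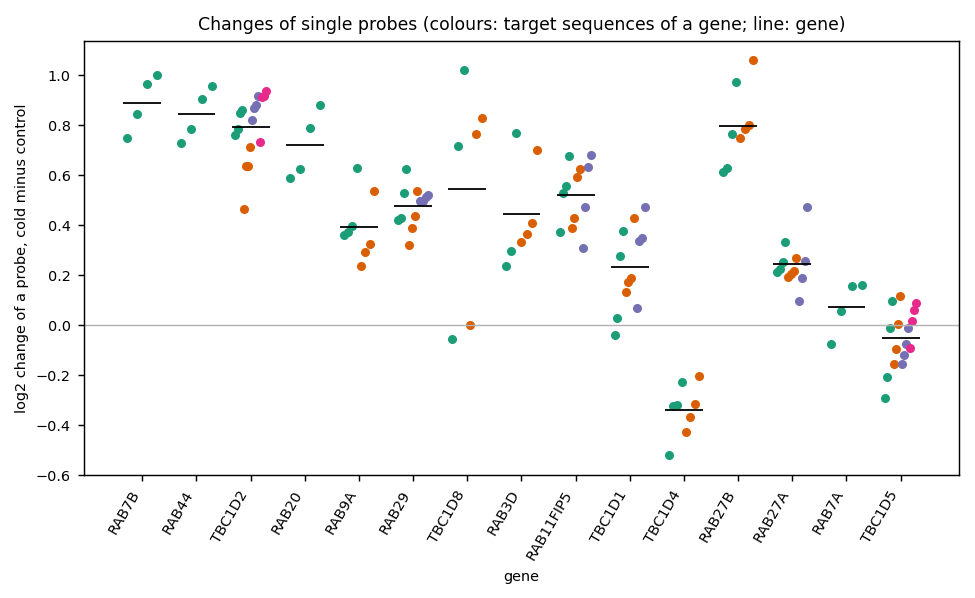
Each point is the log2 change (vertical axis) of 1 kept probe, cold minus control, for the called members and for 6 other members, with a colour for each target sequence of a gene and a line at the value of the gene. The probes of TBC1D2, RAB29, RAB11FIP5 and TBC1D4 lie on 1 side of 0, and those of TBC1D8 and TBC1D5 do not.

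None of the other TBC1D members was called in the ratio. The 4 of the endoplasmic reticulum and Golgi lay between -0.19 (TBC1D20, a GAP for RAB1, SE 0.09) and 0.01. The 8 of endosome recycling, which include the called TBC1D8 (8.64% of all genes were called), had a median change of -0.08. TBC1D24, 1 of the 8, was at -0.28 (SE 0.11). TBC1D9 was at 0.48 (SE 0.23), and its cold values were 0.99, 0.93, 1.97 and 0.94. TBC1D10C, a GAP of lymphocytes, changed by -0.13 (SE 0.11) in the ratio and by -0.49 in Cy3 alone (unadjusted limma p 0.00467), where it was called. The 3 members tied to the TSC complex or the cilium were at 0.07 to 0.21, with TBC1D7, the small subunit of the TSC complex, the highest.

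Other genes of the RAB cycle were taken from 4 lists. Of 92 listed, 49 were measured, and 2 were called higher and 3 lower (10.2%, close to the 8.64% of all genes), with a median change of 0.06. The 21 exchange factors held RABIF (0.31, SE 0.09, no overlap), DENND2D (-0.40, SE 0.11) and DENND1B (-0.44, SE 0.13). The 20 effectors held SYTL4, a granule effector of RAB27 (0.67, SE 0.16), and RBSN, an effector of RAB5 (-0.37, SE 0.11, with no overlap). In Cy3 alone neither was called, with SYTL4 at 0.79 and RBSN at -0.18. None of the 5 genes for prenylation and membrane extraction was called, with RABAC1 at 0.22 (SE 0.09, no overlap), nor was any of the 3 other TBC-domain GAPs, with SGSM2 at -0.13 (SE 0.08) and RABGAP1L at 0.36 (SE 0.26).

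By array, the median over the RAB members of the deviation from each gene's mean over all 10 arrays was -0.09 to 0.01 on the control arrays and 0.02 to 0.15 on the cold arrays. For the TBC1D members the arrays overlapped, at -0.09 to 0.05 in control and -0.04 to 0.09 in cold. Cold replicate 3 was the highest array for 27 of the 65 members and for 7 of the 9 called ones. Without it 1275 genes were called (4.85%) and 6 of the 9 stayed called, all but RAB29, RAB3D and RAB11FIP5, and all 9 remained higher by 0.29 to 0.80. Without cold replicate 2, in contrast, 1272 genes passed the adjusted threshold, 6 members among them (RAB7B, RAB44, TBC1D2, RAB29, RAB3D and RAB27B), and without control replicate 5 there were 633, with RAB7B and TBC1D2 higher and RAB3IL1 lower. The Cy5 channel was dimmer on control than on most cold arrays, with a median intensity of 44 to 80 against 48 to 152.

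**Figure D4:**
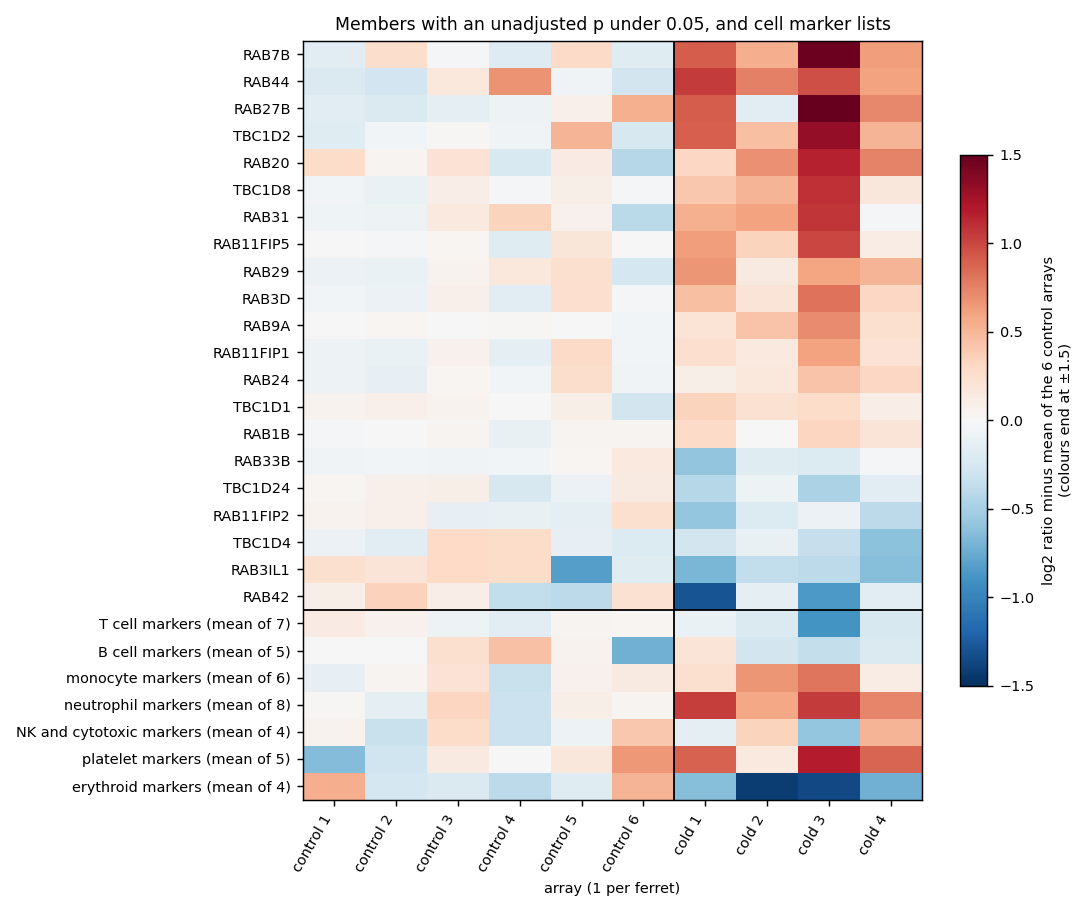
Colours give the log2 ratio less the mean of the 6 control arrays for the 21 members with an unadjusted limma p under 0.05 (15 higher, 6 lower in cold) and, below the line, for the mean of each list of cell markers, with arrays on the horizontal axis. Cold replicate 3 has the deepest colours for many members, for the monocyte, neutrophil and platelet lists (higher) and for the T cell and cytotoxic lists (lower). For neutrophils cold replicate 1 is nearly as deep.

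Lists of blood cell markers were read on the same arrays, and their relation to the members by array was not tested. Markers of T cells (CD3E, CD3G), B cells (CD79A, CD79B), monocytes (CD14, CD68) and cytotoxic cells (GNLY, PRF1) passed the filter, so that each cell class of PBMC was represented. The mean of 8 measured neutrophil markers, of 10 listed, was 0.47 to 1.12 in control and 1.37 to 1.85 in cold. Of the 8, 5 were called higher (MPO, S100A8, S100A9, CEBPE and PADI4), beside 5.21% of all genes. CXCR2 (0.82), CSF3R (0.40) and MMP9 (0.19) were not called. For monocytes (6 of 8) it was -0.03 to 0.52 and 0.42 to 1.10, with VCAN and CD14 called higher. LYZ (0.60), CD68 (0.49) and CSF1R (0.29) were not called, and CD163 went the other way (-0.62, not called). For platelets (5 of 7) it was -0.05 to 1.25 and 0.74 to 1.77, with GP9 and TREML1 called higher. ITGA2B (0.82), TUBB1 (0.87) and GP1BA (0.04) were not called. T cell markers (7 of 10) were at 0.05 to 0.34 in control and -0.67 to 0.12 in cold, with LCK called lower (3.43% of all genes). CD3E (-0.56), CD3G (-0.59), CD2 (-0.44) and CD28 (-0.20) were lower and not called, and CD3D (0.01) and CD5 (-0.01) were near 0. Erythroid markers (4 of 6) were at 0.18 to 1.12 and -0.85 to -0.06, with HBM called lower. The 5 B cell markers and the 4 cytotoxic markers held no call (8.64% of all genes). In PBMC as a whole, more cells of a type and more RNA of a gene per cell cannot be told apart, and the part of these markers in the changes of RAB7B, RAB44, RAB20, RAB27B, TBC1D2 and the other members was not tested.

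The arrays lay on 10 slides, at position 1 (4 control, 2 cold) or position 2 (2 of each). All 9 called members were higher in cold at both positions, by 0.32 to 0.93 at position 1, where 5 were called (3.88% of all genes), and by 0.40 to 0.91 at position 2, where none was (1.54% of all genes). With the position as a block all 9 stayed called.

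**Figure D5:**
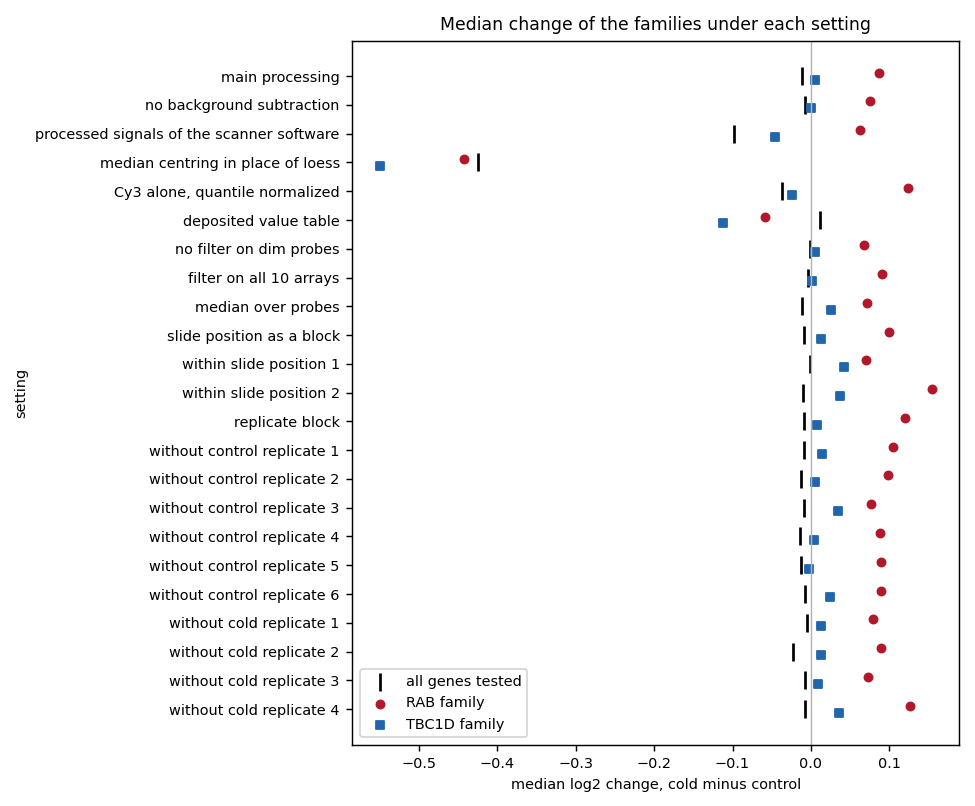
The horizontal axis is the median log2 change, cold minus control, of the 43 RAB members (circles), the 22 TBC1D members (squares) and all genes tested (bars) under each setting on the vertical axis. The RAB median lies above that of all genes in 21 of the 23 settings shown, and under median centring and in the deposited table all family medians are below 0.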

How the data were processed

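PBMC RNA of 6 control and 4 cold ferrets was measured on custom 2-colour arrays, 1 for each animal. The authors deposited spot intensities of the scanner software, as median signal and background of both channels, and processed log2 values for the target sequences. The scanner software was Agilent Feature Extraction, and the genome build of the probes is not given in the sources used here. Intensities were corrected by normexp (offset 50) in limma 3.58.1 (R 4.3.3), control spots left out, and ratios normalised by loess within each array (span 0.3, 4 iterations). Values were averaged over spots, then over probes. The filter asked for Cy3 well above background, for a share of 0.5 or more of the spots, on 4 or more arrays, and 111051 probes of 26303 genes passed, 387 of them for members. Of 45328 target sequences, 21104 were named through the RefSeq table of assembly ASM1176430v1.1. The share of spots above background was 50.4 to 63.5% in Cy3 and 27.0 to 64.0% in Cy5, and the 10 arrays limit the precision. Of the 65 members, 61 were above background on all arrays in Cy3 and 45 in Cy5. The group comparison used lmFit and eBayes of limma, with Benjamini-Hochberg adjustment over all genes, and was tested on simulated data. The planned spot means were not at hand, so medians were used.

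Members and lists were chosen with earlier results of these data known. Named genes were those called or without overlap, 8 further genes whatever their values, up to 4 examples for a role group, and the 2 of lowest p in each other list, of which 1 is not reported here. The alternatives were no background subtraction, processed signals, median centring, Cy3 alone (quantile normalised), the deposited table, other probe filters, the median over probes, target sequences, the methods' t-test on all genes, slide position, a replicate block, and leaving out each array.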

Additional observations from a re-analysis of the deposited data

Results flagged for a closer look

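A single array stood apart from the rest of its group by Dixon's criterion in 7 of 132 groups examined, and chance gives about 1 in 20. Cold replicate 3 accounted for 4 of them, with the highest cold value of TBC1D9 (1.97) and of RAB38 (0.19) and the lowest of TBC1D10C (0.49) and of RAB40B (-0.17). In control, TBC1D2 was high on replicate 5 (0.95), TBC1D1 low on replicate 6 (0.25) and RAB14 low on replicate 4 (-0.14).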

How the results depend on the processing

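From the processed signals of the scanner software, 1505 genes were called, with 2 RAB members (RAB7B and RAB3D) and 0 TBC1D members. Under median centring 1163 genes were called and 0 RAB and 0 TBC1D members. The family medians there were -0.44 and -0.55, beside -0.43 for all genes. RAB20 (-0.14), RAB9A (-0.24) and RAB11FIP5 (-0.24) changed sign but lay above that median of all genes. In Cy3 alone 4 TBC1D members were called, RAB20 and RAB3D passed the adjusted threshold, and RAB34 reversed (0.45). The values that the authors deposited gave 1093 genes and 3 RAB members, with medians of -0.059 and -0.11. Within slide position 1 there were 1021 genes and 4 RAB members (3 higher, 1 lower), and within position 2 there were 405 genes, 0 RAB and 0 TBC1D members and a RAB median of 0.15. With target sequences as features, 2785 of 32400 sequences (8.60%) were called, with 14 of 60 RAB (13 higher, 1 lower) and 6 of 39 TBC1D sequences (all higher). The TBC1D sequences were all of TBC1D2 and TBC1D8. The RAB sequences were of the called RAB members and of RAB27B, with RAB3GAP1 as the lower one. Several sequences of 1 gene are counted here, so these are not shares of genes. Leaving out each array in turn gave 1275 to 3386 genes (1275 without cold replicate 3, 1425 without control replicate 1, 1504 without control replicate 2), 5 to 10 RAB and 2 to 4 TBC1D members (4 without cold replicate 2). The methods' t-test kept 8 of the 9 called members. The cause of these shifts was not tested.

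Each array held a different ferret, and the replicate numbers were not taken as pairs. Deviations of equal numbers correlated at -0.30, 0.54, 0.10 and -0.19, and those of unequal numbers at -0.63 to 0.56. Such values cannot show whether the numbers pair animals. The replicate block gave 2459 genes, 7 RAB and 2 TBC1D members, without RAB44 and RAB9A and with RAB11FIP1 and RAB3IL1, and medians of 0.12 and 0.01.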
